A study of Mus musculus with 8 samples.

Results

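The immediate-early and AP-1 factors described here are 10 of the 23761 genes listed in the expression table of bone marrow-derived macrophages (BMDMs), compared between mice with KLF2 deleted in myeloid cells (K2KO) and their controls (LysM). Taken by name, they are the AP-1 subunits Fos, Fosb, Fosl2, Jun and Atf3, the zinc-finger factors Egr1, Egr2 and Egr3, and the immediate-early response genes Ier3 and Ier5. BMDMs are macrophages grown from marrow precursors, here for 6 days in medium conditioned by L929 fibroblasts, from mice that were 3 months old. LysM mice are LysM Cre/Cre and K2KO mice are LysM Cre/Cre with KLF2 flox/flox, so Cre, a recombinase expressed from the lysozyme M gene, is shared by both groups. That gene is active in macrophages, granulocytes and other myeloid cells. Total RNA of 4 mice per genotype was sequenced. The names of the columns and the sample descriptions carry the abbreviation "veh", and no stimulus is given in the labels, so the values are those of cells in culture without a stated inducer. The libraries are numbered 0 to 3 within each genotype as in the table, and no label ties a column to 1 mouse.

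Immediate-early genes are transcribed within minutes of a signal, without new protein synthesis, and their mRNAs are short-lived. MAP kinases activate serum response factor with its ternary complex partners, and CREB, at the promoters of Fos and Egr1, while JNK acts on the Jun protein itself. FOS and JUN proteins pair through leucine zippers to form the factor AP-1, and EGR proteins bind GC-rich DNA through zinc fingers. In macrophages these genes are known for their rapid induction by CSF1, by bacterial products and by handling of the cells.

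Expression is given as FPKM (fragments per kilobase of transcript relative to all mapped fragments), a measure per transcript length that allows levels of different genes to be set side by side. The number of reads behind each value is unknown. Summed FPKM was 497253, 537664, 540497 and 551608 in LysM libraries 0 to 3 and 448235, 460383, 483726 and 501965 in K2KO libraries 0 to 3. The 2 ranges overlapped only between LysM library 0 and K2KO library 3 (exact two-sided permutation test, p = 0.0571). Depth relative to LysM library 0 was estimated from genes averaging under 0.2 FPKM and detected in both libraries compared. The estimate is the most common ratio of their FPKM, LysM library 0 over the other library. It was 0.973, 1.09 and 1.24 for LysM libraries 1 to 3, and 1.34, 1.42, 0.900 and 0.985 for K2KO libraries 0 to 3. By this estimate K2KO libraries 0 and 1 were the deepest of the 8, and estimated depth did not differ between genotypes beyond its spread (exact two-sided permutation test, p = 0.571).

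Klf2, the targeted gene and a zinc-finger factor known to restrain inflammatory transcription, was read first as a check of the labels. It lies on chromosome 8 of GRCm38 (mm10), chr8:72319033-72321656, on the plus strand. Klf2 was at 44.1, 52.9, 64.7 and 72.8 FPKM in LysM libraries 0 to 3 and at 45.5, 41.6, 59.2 and 59.3 FPKM in K2KO libraries 0 to 3. The genotypes overlapped, with means of 58.7 ± 12.7 and 51.4 ± 9.22 FPKM (SD, n = 4 each), a log2 fold change of -0.18 (SE 0.17) and a limma adjusted p of 0.460. Which exons of Klf2 the reads came from cannot be read from a value per gene, and the floxed exons are not given in the sources used here. Since a lower level of Klf2 was not clear, directions are given for the libraries labelled K2KO.

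The labelled cell type was checked against fixed markers. Of 11 macrophage markers, 10 passed the filter used for testing (a mean of at least 1 FPKM), led by the scavenger receptor Cd68 at 1807 FPKM, and the summed level of all 11 was 4199 FPKM in LysM and 3914 FPKM in the libraries labelled K2KO, without overlap (exact two-sided permutation test, p = 0.0286, the smallest that 4 against 4 allows). The direction turned when the sum was taken as a share of the summed FPKM of each library, at 0.791 ± 0.0411% in LysM and 0.828 ± 0.0306% in K2KO (SD, n = 4 each; exact two-sided permutation test, p = 0.20). In the libraries labelled K2KO, Mertk and Msr1 were higher and Lyz2 was lower (limma adjusted p = 0.0285, 0.0208 and 0.0260), which held in 2, 5 and 4 of 8 fits with 1 library left out. After correction for GC content and transcript length Lyz2 was still called, and Mertk (0.28, limma adjusted p = 0.0752) and Msr1 (0.11, limma adjusted p = 0.301) were not. Lyz2, into which the Cre of both genotypes is inserted, was only at 18.6 FPKM in LysM. Neutrophil markers summed to 244 FPKM in LysM and 250 FPKM in K2KO (exact two-sided permutation test, p = 0.857), led by S100a9 at 129 FPKM, and of the 8 tested only Camp was called, at a log2 fold change of -1.14 (limma adjusted p = 0.0178), and -0.96 after that correction (limma adjusted p = 0.0299). The sums of markers of other cell types were higher on average in K2KO without passing the exact two-sided permutation test. Dendritic cell markers (7, led by Ccr7 at 1.30 FPKM) summed to 2.04 FPKM in LysM and 3.59 FPKM in K2KO (permutation p = 0.0857), and T and B cell markers (8, led by Cd79b at 2.47 FPKM) to 3.35 and 4.6 FPKM (permutation p = 0.171). Fibroblast markers (7, led by Dcn at 0.481 FPKM) summed to 0.637 and 1.76 FPKM (permutation p = 0.171), and mast cell and basophil markers (5, led by Cpa3 at 0.145 FPKM, with Tpsb2 at 0) to 0.290 and 0.496 FPKM (permutation p = 0.257). Erythroid and megakaryocyte markers summed to 271 and 298 FPKM (permutation p = 0.543), led by Pf4 at 282 FPKM, a gene that macrophages also express, while Hbb-bt was at 0. The part of these cells in the results below was not tested, and in bulk RNA fewer cells of a type and less RNA per cell cannot be told apart.

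Of the 10 genes, all 10 passed the filter and 1, Ier3, was differentially expressed (limma adjusted p below 0.05 with a log2 fold change beyond 0.26 in either direction). It was lower in the libraries labelled K2KO. That is 1 of 10, beside 18.4% of all 10920 tested genes in either direction, 8.61% in the lower direction and 9.84% in the higher. Both counts depended on the fit. After correction for GC content and transcript length they were 0 of 10 and 10.1% of all tested genes. With 1 library left out, 0 to 1 of the 10 and 541 to 2853 of all tested genes were called. At an unadjusted p under 0.05 the count was also 1 of 10, beside 4126 of all tested genes. Ier3 was likewise the only one of the 10 whose genotypes did not overlap, beside 23.1% of all tested genes (10.2% lower and 12.9% higher). The median log2 fold change was -0.070 over the 10 genes and 0.011 over all tested genes. Mean FPKM was lower in K2KO for 7 genes and higher for 3, but after quantile normalization the log2 fold change was below 0 for 4 and above 0 for 6. The 95% interval of the difference lay within 1.5-fold in both directions for 5 genes (Fos, Fosb, Jun, Atf3 and Ier5). These intervals limit how large a difference could have gone unseen, and do not show that expression was equal.

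**Figure D1:**
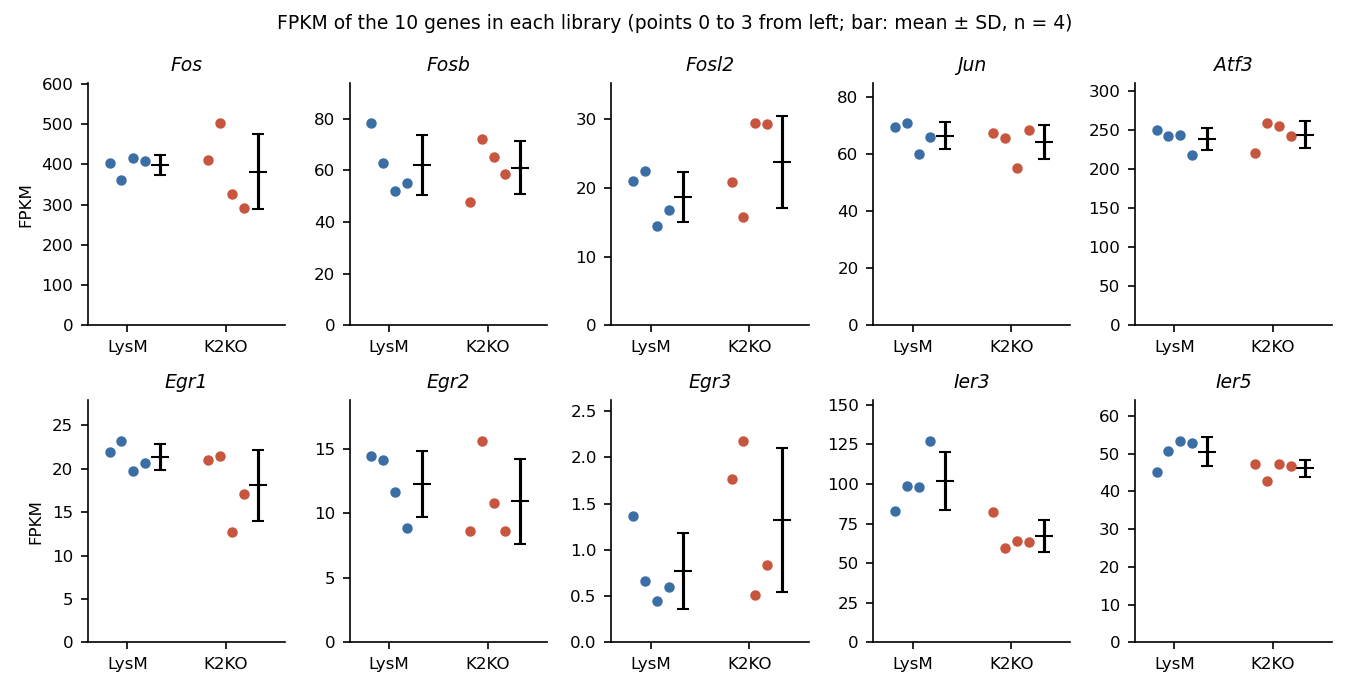
FPKM (linear axes from 0) of each of the 10 genes in the 4 LysM (blue) and 4 K2KO (red) libraries, ordered 0 to 3 from left within a genotype, with the mean and SD beside the points. Only for Ier3 do the 2 groups not overlap, with K2KO library 0 (82.1 FPKM) just below LysM library 0 (83.1 FPKM).

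Levels differed widely between the 10 genes. Fos had the highest mean over the 8 libraries (389.9 FPKM), followed by Atf3 (242 FPKM), Ier3 (84.5 FPKM), Jun (65.3 FPKM), Fosb (61.5 FPKM), Ier5 (48.3 FPKM), Fosl2 (21.3 FPKM), Egr1 (19.7 FPKM), Egr2 (11.6 FPKM) and Egr3 (1.05 FPKM). Fos ranked 184 and Egr3 ranked 10850 among the 10920 tested genes by this mean. Fos exceeded Atf3, and Egr2 exceeded Egr3, in every library without overlap of their ranges. Ranges overlapped between each other pair of neighbours in the order apart from Atf3 and Ier3 and from Ier5 and Fosl2.

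Stretches of 2 promoters are shown because Fos was the most abundant of the 10 genes and Ier3 the only one called. The promoter table used here, from RefSeq (GRCm38.p6), matched 8 of the 10 genes. Motifs were searched in the 250 bases before the RefSeq start site, and the sequences are printed 5′ to 3′ with the matches in capitals. For Ier3 the RefSeq start site, 35821713, lies 29 bases inside the gene as GENCODE places it, and these 29 bases are not printed. The Fos stretch is chr12:85473640-85473889 and the Ier3 stretch chr17:35821463-35821683, both on the plus strand.
Fos: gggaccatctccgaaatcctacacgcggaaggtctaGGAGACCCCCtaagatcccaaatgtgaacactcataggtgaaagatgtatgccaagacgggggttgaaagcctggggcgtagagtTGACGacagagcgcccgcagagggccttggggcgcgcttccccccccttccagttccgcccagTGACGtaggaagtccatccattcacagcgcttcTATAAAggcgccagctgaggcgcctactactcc
Ier3: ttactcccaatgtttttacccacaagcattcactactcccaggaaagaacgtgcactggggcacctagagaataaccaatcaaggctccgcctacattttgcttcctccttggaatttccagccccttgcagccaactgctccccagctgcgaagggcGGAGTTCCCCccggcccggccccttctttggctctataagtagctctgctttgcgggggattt
In the Fos stretch, the capitals mark 2 matches to CGTCA (the core bound by CREB and ATF factors) on the minus strand, at -66 to -62 and -129 to -125 from the RefSeq start site, a TATAAA box on the plus strand at -33 to -28, and an NF-kB consensus on the minus strand at -214 to -205. The Ier3 stretch held an NF-kB consensus on the minus strand at -92 to -83. CGTCA was found on either strand in 4 of the 8 promoters (Fos, Fosb, Atf3 and Egr2) and in 17.8% of all 32851 promoters. The NF-kB consensus stood in 4 of 8 (Fos, Fosb, Fosl2 and Ier3) and in 3.90% of all promoters. CACCC, the core of sites bound by KLF factors, stood in 5 of 8 (Fosb, Fosl2, Jun, Atf3 and Egr2) and in 52.0% of all. TATAAA was found in 1 (Fos) and in 12.4% of all, the CArG box of serum response factor in 1 (Egr2) and in 1.47% of all, and TGANTCA, the AP-1 site, in 0 of 8 and in 6.75% of all. The matches describe letters in these windows and not binding. Egr1 and Egr3 had no entry in the promoter table, and sites farther upstream were not searched for Fos or any other gene.

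Among the AP-1 subunits, none of 5 was differentially expressed, and none had an unadjusted p under 0.05 in limma. Fos, the founding member of the family and a partner of JUN proteins, lies at chr12:85473890-85477273 on the plus strand. Its level was 405, 361, 416 and 408 FPKM in LysM libraries 0 to 3 and 410.1, 502, 326 and 291 FPKM in K2KO libraries 0 to 3. The K2KO libraries enclosed the whole LysM range, with the highest and the lowest value of all 8. The means were 398 ± 24.9 and 382 ± 94.3 FPKM (SD, n = 4 each), and the log2 fold change was -0.086 (SE 0.15, 95% interval -0.43 to 0.26, limma adjusted p = 0.706). Fos varied 1.15-fold from lowest to highest within LysM and 1.72-fold within K2KO, a difference in spread that was not tested. The call did not change in any alternative, while the sign of this small difference turned with quantile normalization (0.12).

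Fosb, a FOS relative that also exists as a truncated form, lies at chr7:19302696-19310051 on the minus strand. It was measured at 78.3, 62.8, 52.0 and 55.1 FPKM in LysM libraries 0 to 3 and at 48.0, 72.2, 65.3 and 58.6 FPKM in K2KO libraries 0 to 3. The ranges overlapped almost wholly, and the means were nearly equal at 62.0 ± 11.7 and 61.0 ± 10.3 FPKM (SD, n = 4 each). The log2 fold change was -0.022 (SE 0.15, 95% interval -0.37 to 0.32, limma adjusted p = 0.930).

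Fosl2, which encodes the FOS-related subunit FRA-2, lies at chr5:32135801-32157842 on the plus strand. LysM libraries 0 to 3 stood at 21.1, 22.4, 14.4 and 16.8 FPKM, and K2KO libraries 0 to 3 at 20.9, 15.7, 29.4 and 29.3 FPKM. K2KO libraries 2 and 3 were above all others and nearly equal, whereas K2KO libraries 0 and 1 lay inside the LysM range. The means of 18.7 ± 3.70 and 23.8 ± 6.72 FPKM (SD, n = 4 each) gave a log2 fold change of 0.32 (SE 0.21, limma adjusted p = 0.291). Its 95% interval, from -0.16 to 0.81, spans a fold of 0.895 to 1.75, so a moderate difference was not detectable with this spread.

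Jun, the main DNA-binding partner of FOS proteins, lies at chr4:95049034-95052222 on the minus strand. In LysM libraries 0 to 3 it was at 69.5, 70.8, 60.0 and 65.8 FPKM, and in K2KO libraries 0 to 3 at 67.2, 65.7, 55.2 and 68.4 FPKM. Library 2 was the lowest of either genotype, and the other 6 lay between 65.7 and 70.8 FPKM. The means of 66.5 ± 4.84 and 64.2 ± 6.04 FPKM (SD, n = 4 each) differed by a log2 fold change of -0.054 (SE 0.085, 95% interval -0.25 to 0.14, limma adjusted p = 0.667). Jun overlaps the antisense gene Junos, whose transcript shares 232 bases with that of Jun, and whether the counting used strand is not stated, so Jun is uncertain to that extent. Junos itself was at a mean of 0.216 FPKM.

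Atf3, a stress-induced factor of the ATF family that pairs with JUN and is known to limit cytokine genes in macrophages, lies at chr1:191170296-191218039 on the minus strand. Values of 251, 243, 244 and 219 FPKM in LysM libraries 0 to 3 stood beside 221, 259, 255 and 242 FPKM in K2KO libraries 0 to 3. The genotypes overlapped, and Atf3 was the least variable of the 5 subunits. Means of 239 ± 14.01 and 244 ± 17.0 FPKM (SD, n = 4 each) gave a log2 fold change of 0.031 (SE 0.074, limma adjusted p = 0.783), with a 95% interval that spans a fold of 0.911 to 1.15.

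None of the 3 EGR factors was differentially expressed, and none had an unadjusted p under 0.05 in limma. Egr1, which is induced by growth factors and takes part in macrophage differentiation, lies at chr18:34859823-34864984 on the plus strand. The 4 LysM libraries were close together at 21.9, 23.2, 19.7 and 20.6 FPKM, and K2KO libraries 0 to 3 were at 20.99, 21.5, 12.8 and 17.1 FPKM. K2KO libraries 0 and 1 lay within the LysM range and K2KO libraries 2 and 3 below it. The means were 21.4 ± 1.54 and 18.1 ± 4.05 FPKM (SD, n = 4 each), with a log2 fold change of -0.27 (SE 0.15, 95% interval -0.61 to 0.076, limma adjusted p = 0.224).

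Egr2, known for its roles in myelin-forming and in lymphoid and myeloid cells, lies at chr10:67535475-67542188 on the plus strand. Its values were 14.4, 14.1, 11.7 and 8.88 FPKM in LysM libraries 0 to 3 and 8.59, 15.6, 10.8 and 8.66 FPKM in K2KO libraries 0 to 3. K2KO library 1 was the highest of all 8 and K2KO library 0 the lowest. With means of 12.3 ± 2.56 and 10.9 ± 3.30 FPKM (SD, n = 4 each), the log2 fold change was -0.19 (SE 0.21, 95% interval -0.66 to 0.29, limma adjusted p = 0.541).

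Egr3, which EGR1 can induce and which resembles it in its zinc fingers, lies at chr14:70077203-70082614 on the plus strand. It was at 1.37, 0.663, 0.443 and 0.596 FPKM in LysM libraries 0 to 3 and at 1.76, 2.18, 0.508 and 0.837 FPKM in K2KO libraries 0 to 3. The highest LysM library exceeded K2KO libraries 2 and 3, so the genotypes overlapped. Egr3 passed the filter only through the K2KO group, since its LysM mean was 0.767 ± 0.410 FPKM against 1.32 ± 0.781 FPKM (SD, n = 4 each). The log2 fold change of 0.63 (SE 0.46, limma adjusted p = 0.341) is on the log2(FPKM + 0.1) scale, and its 95% interval spans a fold of 0.753 to 3.18.

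Ier3, which encodes a small stress-inducible protein linked to cell survival and to restraint of NF-kB signalling, lies at chr17:35821684-35822923 on the plus strand. Its level was 83.1, 98.4, 98.2 and 127 FPKM in LysM libraries 0 to 3 and 82.1, 59.4, 63.7 and 63.4 FPKM in K2KO libraries 0 to 3. All libraries labelled K2KO were below all LysM libraries, by a wide gap for 3 of them and by a narrow one for K2KO library 0. The mean fell by 34.0%, from 102 ± 18.5 to 67.1 ± 10.1 FPKM (SD, n = 4 each), and the log2 fold change was -0.59 (SE 0.14, 95% interval -0.91 to -0.28, limma adjusted p = 0.0227). The exact two-sided permutation test of Ier3 alone gave p = 0.0286. This is the smallest possible value, which 4 against 4 without overlap always gives, so it adds nothing to the lack of overlap. The log2 fold change shrank to -0.44 after correction for GC content and transcript length (limma adjusted p = 0.0687), and without a filter the adjusted p was 0.0510, so the call was lost in both. With 1 library left out in turn the call held in 4 of 8 fits and was lost without LysM library 1 or 3 or K2KO library 1 or 2 (log2 fold change -0.60, -0.48, -0.54 and -0.57).

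Ier5, known as a regulator of the heat-shock factor HSF1, lies at chr1:155096361-155099636 on the minus strand. LysM libraries 0 to 3 were at 45.2, 50.7, 53.4 and 52.8 FPKM and K2KO libraries 0 to 3 at 47.3, 42.8, 47.4 and 46.7 FPKM. LysM library 0 fell among the K2KO libraries and the other 3 LysM libraries lay above them all. The means of 50.5 ± 3.76 and 46.1 ± 2.17 FPKM (SD, n = 4 each) gave a log2 fold change of -0.13 (SE 0.070, limma adjusted p = 0.195), and the 95% interval spans a fold of 0.819 to 1.02.

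**Figure D2:**
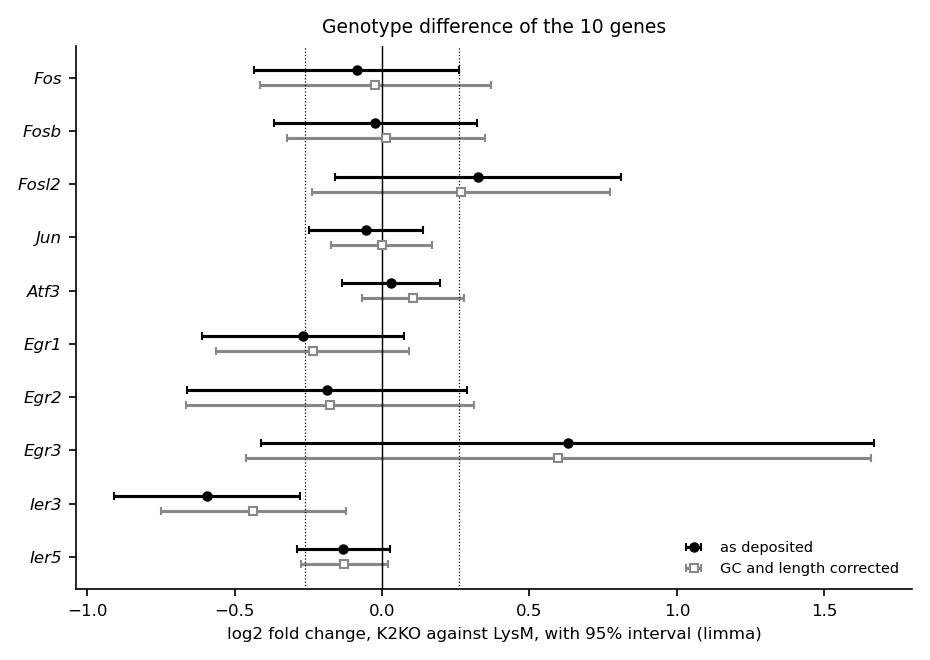
Log2 fold change of each gene, K2KO against LysM, with its 95% interval from limma (black circles, FPKM as deposited; grey squares, after correction for GC content and transcript length). Dotted lines mark the fold threshold of 0.26 in both directions, and only the Ier3 interval, -0.91 to -0.28, lies wholly beyond one of them before correction.

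GC content moved with the fold changes across all tested genes. When the tested genes were split into eighths by GC content, the median log2 fold change ran from 0.19 in the lowest eighth to -0.16 in the highest. The transcripts of the 10 genes have a GC content of 51.3% to 57.3%, above the tested median of 49.7%, and fall in the upper 4 eighths. In the eighth that holds Ier3, with 54.4% to 57.0% GC, the median was -0.089, with 13.7% of genes called lower and 3.16% called higher. After correction for GC content and transcript length, 1098 of all tested genes (10.1%) and none of the 10 were called. The correction fits GC content and transcript length together, and their separate parts in the difference of Ier3 were not tested.

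Most of the 10 genes varied more between libraries of 1 genotype than most genes did. The residual SD on the log2 scale had a median of 0.256 over the 10 genes, with a range of 0.0922 (Ier5) to 0.759 (Egr3), beside 0.132 over all tested genes (quartiles 0.0940 and 0.196). For 7 of the 10 (Fos, Fosb, Fosl2, Egr1, Egr2, Egr3 and Ier3) it lay above the 80th percentile, both of all tested genes and of genes of like level (10 bins of equal size). The other 3, Jun, Atf3 and Ier5, lay at percentiles 46.5, 25.7 and 23.5 of all tested genes, and at 59.6, 28.1 and 30.7 of genes of like level. From the lowest to the highest of the 8 libraries Egr3 spanned 4.92-fold, Ier3 2.14-fold, Fosl2 2.04-fold, and Egr1 and Egr2 1.82-fold each, followed by Fos (1.72-fold), Fosb (1.63-fold), Jun (1.28-fold), Ier5 (1.25-fold) and Atf3 (1.18-fold).

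**Figure D3:**
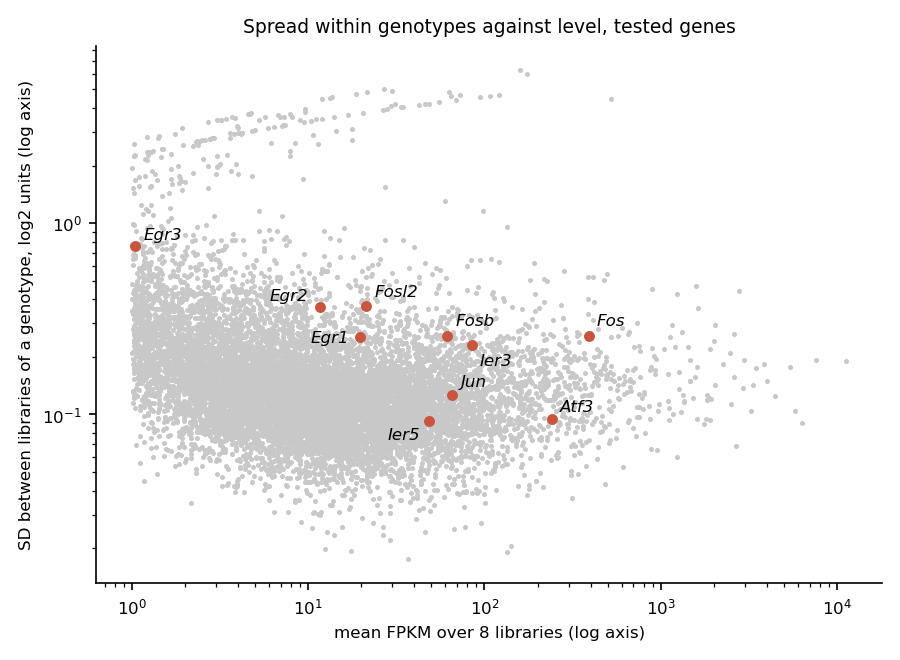
Residual SD between libraries of a genotype (log2 units, log axis) against mean FPKM over the 8 libraries (log axis) for all 10920 tested genes (grey) and the 10 genes (red, named). Fos, Fosb, Fosl2, Egr1, Egr2, Egr3 and Ier3 lie in the upper part of the cloud, at percentile 82.0 (Ier3) to 97.9 (Egr3), and Jun, Atf3 and Ier5 do not.

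The deviations were not shared by all 10 genes. K2KO library 1 was the highest of its genotype for 6 genes (Fos, Fosb, Atf3, Egr1, Egr2 and Egr3) and the lowest for 3 (Fosl2, Ier3 and Ier5). It was also the deepest library by the estimate from low FPKM. LysM library 0 was the highest of its genotype for Fosb, Atf3, Egr2 and Egr3, and LysM library 2 the lowest for Fosb, Fosl2, Jun, Egr1 and Egr3. Fosl2 went against Fos within K2KO, where the 2 libraries with the most Fosl2 had the least Fos. Summed over the 10 genes, expression was 990.0, 947, 970.2 and 975 FPKM in LysM libraries 0 to 3 and 928, 1056, 866 and 826 FPKM in K2KO libraries 0 to 3. The LysM sums stayed within a narrow band and the K2KO sums lay on both sides of it. Fos has the largest part in these sums, and its SD within K2KO was 94.3 FPKM by itself. The order of the means, 971 ± 17.8 FPKM in LysM and 919 ± 100.5 FPKM in K2KO, turned when the sums were taken as a share of the summed FPKM of each library, at 0.183 ± 0.0109% in LysM and 0.195 ± 0.0289% in K2KO (SD, n = 4 each).

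**Figure D4:**
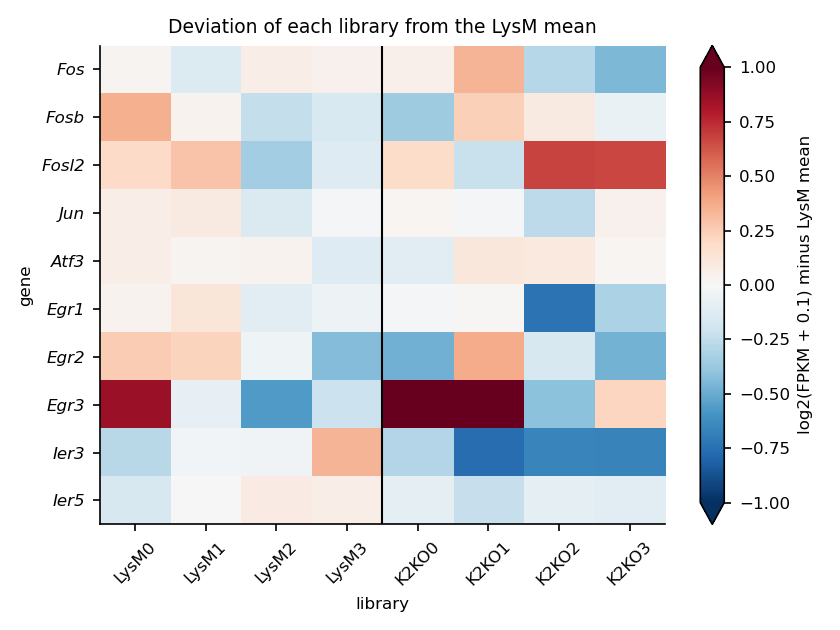
Deviation of log2(FPKM + 0.1) from the LysM mean of each gene (rows) in each of the 8 libraries (columns; red above, blue below, colours saturate at the ends of the bar). Ier3 is blue in all K2KO columns, Fosl2 is red in K2KO libraries 2 and 3 (29.4 and 29.3 FPKM), and K2KO library 1 is red for Fos, Fosb, Egr2 and Egr3.

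The genes most like Ier3 and Fos across the 8 libraries were sought by the mean absolute difference of gene-centred log2 values. For Ier3 they were Rarg (0.0747), Cmklr1 (0.0806) and Tagap (0.0863), against a median of 0.335 over all tested genes. Rarg encodes a retinoic acid receptor, Cmklr1 the chemerin receptor and Tagap a GTPase-activating protein. Their log2 fold changes were -0.70, -0.64 and -0.57, a direction that the choice of genes like Ier3 over the same 8 libraries fixes. For Fos they were Zbtb34 (0.0589), Spata2l (0.0678) and Gpr146 (0.0830), against a median of 0.231. None of these 3 was called, which their choice for likeness to Fos over the same libraries largely fixes.

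Relatives of the 10 genes were read from fixed lists. The counts in this and the following lists stand beside 9.84% of all tested genes called higher and 8.61% called lower. Of 18 tested AP-1 and other leucine-zipper partners, 2 were higher in the libraries labelled K2KO and 2 were lower, with a median log2 fold change of 0.042. Junb, an AP-1 subunit and the most abundant of them at 676 FPKM, had a log2 fold change of -0.18 (SE 0.093, limma adjusted p = 0.179). Atf2, a partner of JUN, was higher by 0.34 and Nfe2l2, the factor NRF2 of the antioxidant response, by 0.30 (limma adjusted p = 0.0304 and 0.0380). Jund and Atf7 were lower, at -0.57 and -0.43 (limma adjusted p = 0.0352 and 0.0316), and of the 4 only Atf7 was called after the GC and length correction. The corrected log2 fold change was 0.26 for Nfe2l2, -0.25 for Jund and 0.14 for Atf2, and Mafk, named after its values were seen, was called only after the correction (0.27, limma adjusted p = 0.0401). Atf2 and Atf7 held in 3 of 8 fits with 1 library left out, and Jund and Nfe2l2 in 2. Jund was at 439, 450.3, 322 and 434 FPKM in LysM libraries 0 to 3 and at 247, 247, 247 and 373 FPKM in K2KO libraries 0 to 3, so that K2KO library 3 exceeded LysM library 2.

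Among 28 other tested immediate-early genes, 4 were higher in the libraries labelled K2KO and 2 were lower, and the median was -0.073. Id2, an inhibitor of helix-loop-helix factors, was at 224 ± 26.2 FPKM in LysM and 368 ± 74.0 FPKM in K2KO (SD, n = 4 each; log2 fold change 0.70, SE 0.15, limma adjusted p = 0.0171). The KLF factors Klf4 and Klf10 were higher by 0.41 and 0.32 (limma adjusted p = 0.0366 and 0.0348), and the orphan receptor Nr4a2, named after its values were seen, by 0.69 (limma adjusted p = 0.0457). Ier2, an immediate-early nuclear protein, and Zfp36, which destabilises cytokine mRNAs, were lower at -0.45 and -0.42 (limma adjusted p = 0.0212 and 0.0292). The genotypes did not overlap for Ier2, Zfp36, Id2, Klf4 and Klf10, and did for Nr4a2. Over all tested genes, 10.2% were lower and 12.9% higher without overlap. After the GC and length correction Id2 and Klf4 were still called. The calls of the other 4 were lost, with log2 fold changes close to the uncorrected ones for Zfp36 (-0.37), Nr4a2 (0.63) and Klf10 (0.26) and a smaller one for Ier2 (-0.21). Id2 held in 7 of 8 fits with 1 library left out, Ier2 in 4, Zfp36 in 3, and Klf4, Klf10 and Nr4a2 in 2. Egr4, the remaining EGR gene, was listed at 0 in all 8 libraries.

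Of 12 tested feedback inhibitors, 2 were higher and 0 lower, with a median of -0.0056. Dusp4, a phosphatase that inactivates MAP kinases, was at 2.85 ± 0.339 FPKM in LysM and 5.91 ± 1.23 FPKM in K2KO (SD, n = 4 each; log2 fold change 1.01, SE 0.15, limma adjusted p = 0.00676). Nab1, a corepressor that binds EGR proteins, was higher by 0.40 (limma adjusted p = 0.0188), and both were also called after the GC and length correction, as was Dusp5, named after its values were seen (0.53, limma adjusted p = 0.0415). Dusp4 held in 8 of 8 fits with 1 library left out and Nab1 in 3. The 6 tested genes of serum response factor and its partners had 0 calls and a median of 0.13. Of these 6, 3 were at an unadjusted p under 0.05 in limma, beside 4126 of all 10920 tested genes. The lowest p belonged to Srf itself, at a log2 fold change of -0.21 (limma adjusted p = 0.0507), which became 0.0062 after the GC and length correction (limma adjusted p = 0.969). Of 7 CREB factors and coactivators 1 was called. This was Crem, a cAMP-responsive factor, at 16.1, 14.8, 11.1 and 13.4 FPKM in LysM libraries 0 to 3 and 19.4, 17.4, 32.8 and 27.9 FPKM in K2KO libraries 0 to 3 (log2 fold change 0.78, SE 0.20, limma adjusted p = 0.0292). After the GC and length correction its log2 fold change was 0.66 and the call was lost (limma adjusted p = 0.0664), and with 1 library left out it held in 4 of 8 fits. K2KO libraries 2 and 3, the highest for Crem, were also the highest for Fosl2.

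Upstream, 5 of 17 tested kinases of the MAP kinase cascades were higher and 1 lower, with a median of 0.11. That is 35.3% called, beside 18.4% of all tested genes. After the GC and length correction 1 of the 17 was called, beside 10.1% of all tested genes. Mapk9, which encodes a JUN kinase, was at 9.75 ± 0.451 FPKM in LysM and 12.3 ± 0.668 FPKM in K2KO (SD, n = 4 each; log2 fold change 0.33, SE 0.060, limma adjusted p = 0.0123). Map2k3, Map2k4 and Rps6ka3 were higher by 0.40, 0.29 and 0.47 (limma adjusted p = 0.0183, 0.0277 and 0.0252), as was Braf, named after its values were seen, by 0.47 (limma adjusted p = 0.0359). Mapk3, which encodes ERK1, was lower at -0.28 (limma adjusted p = 0.0347). Only Map2k3 was called after the GC and length correction, at 0.50, while Mapk9 was at 0.21, Rps6ka3 at 0.23, Map2k4 at 0.18, Braf at 0.23 and Mapk3 at -0.12. Mapk9 held in 8 of 8 fits with 1 library left out, Map2k3 in 7, Map2k4 and Mapk3 in 3, and Rps6ka3 and Braf in 2. Downstream, 1 of 16 tested genes known as targets of AP-1 or EGR factors was higher and 1 lower, with a median of 0.17. These were the hyaluronan receptor Cd44, at 0.28 (limma adjusted p = 0.0159), and the chemokine Ccl2, at -0.96 (SE 0.26, limma adjusted p = 0.0335), of which Ccl2 was also called after the GC and length correction (-0.99) and Cd44 was not (0.11). Tnf, named after its values were seen, was called only after the correction, as higher (0.53, limma adjusted p = 0.0485). Cd44 held in 6 of 8 fits with 1 library left out and Ccl2 in 2.

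**Figure D5:**
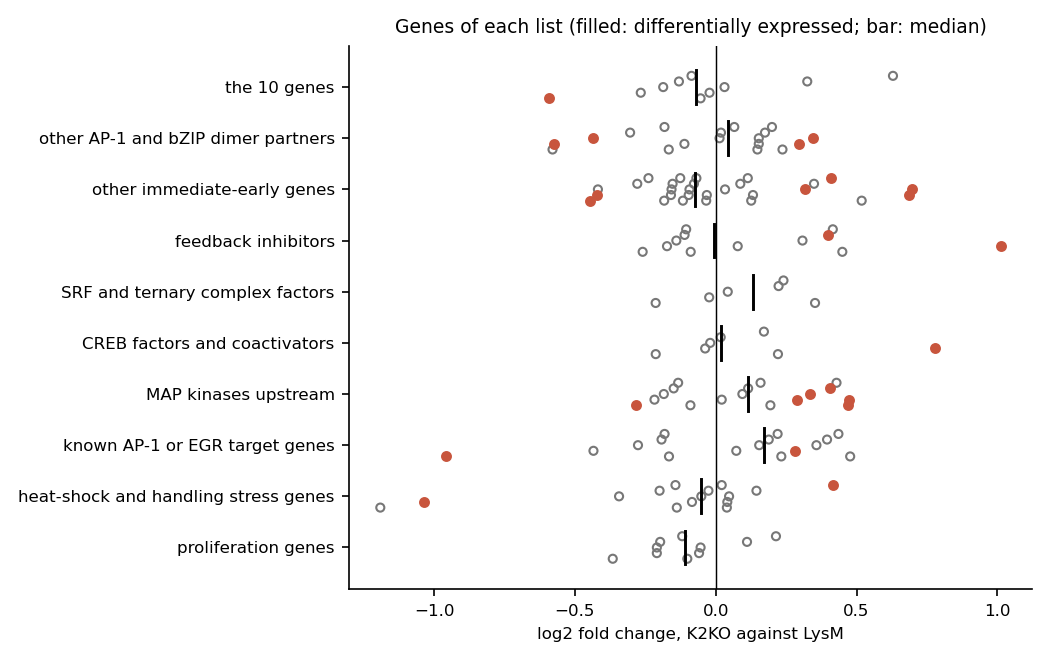
Log2 fold change, K2KO against LysM, of the tested genes of each list shown, which leaves out the marker lists of cell types (points; filled where differentially expressed, bars at the list's median, vertical scatter only to separate points). The 10 genes have 1 filled point, Ier3, and the medians shown lie between -0.11 (proliferation genes) and 0.17 (known targets).

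Handling and growth of the cells can move immediate-early genes, so their markers are given beside them. Of 15 tested heat-shock and handling stress genes, 1 was higher and 1 lower, with a median of -0.051. These were the chaperone genes Dnajb4, at 0.42, and Hspa1a, at -1.04 (limma adjusted p = 0.0221 and 0.0335). After the GC and length correction Hspa1a was at -0.92 and Dnajb4 at 0.22, and neither was called (limma adjusted p = 0.0703 and 0.0872). Dnajb4 held in 4 of 8 fits with 1 library left out and Hspa1a in 3. Chordc1, named after its values were seen, was called only after the correction (-0.31, limma adjusted p = 0.0201). Hspa1a was at 1.43, 2.26, 2.41 and 3.45 FPKM in LysM libraries 0 to 3 and at 1.51, 0.941, 1.23 and 0.717 FPKM in K2KO libraries 0 to 3, so it was highest in LysM library 3, as was Ier3. Of 10 tested proliferation genes 0 were called, with the lowest p for Birc5 (log2 fold change -0.37, limma adjusted p = 0.0902). At an unadjusted p under 0.05 in limma were 2 proliferation genes, beside 4126 of all 10920 tested genes. The part of handling or growth in the values of the 10 genes was not tested.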

How the data were processed

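The authors deposited 1 table with FPKM for each of 8 libraries (4 per genotype), without pooling. Reads were aligned to mm10 with TopHat2 per the methods and quantified with Cufflinks, while the submitters' processing notes name STAR, Cufflinks and Cuffdiff. Libraries came from a stranded total RNA kit. Depth in reads is unknown. The 8 columns name a genotype but no mouse, so p-values measure the spread between these libraries. Of 23761 listed genes, 23645 matched GENCODE M21.

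FPKM were compared as log2(FPKM + 0.1), which understates fold changes of low genes, with limma 3.58.1 in R 4.3.3 (intensity trend, no covariate) for genes averaging 1 FPKM or more, and Benjamini-Hochberg adjustment ran over all tested genes. Intervals are limma's 95% intervals. An exact two-sided permutation test served for single values (35 splits, smallest p 0.0286). The procedure was tested on simulated data. Alternatives were other pseudocounts, filters and scalings, no intensity trend, a local regression on GC content and transcript length (span 0.3), a replicate block and each library left out.

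Named were all 10 genes, Klf2, up to 5 called genes per list by lowest p (where none passed, the lowest p), the most abundant and zero markers, and the 3 genes most like Fos and the lowest-p member. The genes and lists were chosen with earlier results of these data known. An exact 0 was not read as absence.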

Additional observations from a re-analysis of the deposited data

Results flagged for a closer look

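The 42.8 FPKM of Ier5 in K2KO library 1 lay apart from the other K2KO libraries, which were at 46.7 to 47.4 FPKM: its gap to the nearest of them, as a share of the whole range, exceeded Dixon's 95% critical value for 4 values. Of 22 groups of 4 values examined (the 10 genes and Klf2 in both genotypes), 1 passed this limit, where chance gives 1.1.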

How the results depend on the processing

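The calls rest on 4 libraries per genotype without known read depth, and the number of all called genes (2014) ranged from 541 (without LysM library 3) to 2853 (without K2KO library 3). It was 1090 without a filter, 1098 with the GC and length correction and 868 with the replicate block and that correction. Upper-quartile scaling left 64.1% of the calls higher, against 53.3% without it, and the GC and length correction left 44.2% (45.5% with the block). The call of Ier3 held in 7 of 10 settings with all libraries (pseudocounts, a lower filter, both scalings, no intensity trend, replicate block), with log2 fold changes of -0.59 to -0.47. It was lost without a filter (-0.59), with the GC and length correction (-0.44) and with the replicate block and that correction (-0.44, limma adjusted p = 0.134), so the number of the 10 genes called lower was then 0. With 1 library left out it ranged from -0.69 to -0.48 and that number from 0 to 1. None of the other 9 genes was called in any setting run.

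The sign turned under quantile normalization for Fos (0.12), Fosb (0.081) and Jun (0.066), under upper-quartile scaling for Fosb (0.022), and under the GC and length correction, with or without the replicate block, for Fosb (0.013) and Klf2 (0.039). With 1 library left out Fos ranged from -0.23 to 0.034, Fosb from -0.11 to 0.095, Jun from -0.10 to 0.016 and Atf3 from -0.011 to 0.078. The causes were not tested. The log2 ratio of the macrophage marker sums, -0.10, was 0.066 as a share of each library's summed FPKM, and that of the sums of the 10 genes, -0.078, was 0.093. Both alternatives were chosen after seeing the data.

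Numbers of called genes in the lists moved as follows. Without a filter, where more genes were tested, they were 0 leucine-zipper partners, 2 immediate-early genes, 0 CREB genes, 2 kinases, 1 target and 1 heat-shock gene. Under quantile normalization they were 2 leucine-zipper partners, 3 immediate-early genes, 3 kinases and 1 proliferation gene. With the GC and length correction they were 2 leucine-zipper partners, 2 immediate-early genes, 0 CREB genes, 1 kinase and 1 heat-shock gene. With the replicate block they were 3 immediate-early genes, 0 CREB genes and 1 heat-shock gene. With the block and that correction they were 1 leucine-zipper partner, 1 immediate-early gene, 0 CREB genes, 1 kinase, 0 targets, 1 heat-shock gene and 1 proliferation gene. With 1 library left out the ranges were 0 to 5 for leucine-zipper partners and for immediate-early genes, 1 to 2 for feedback inhibitors, 0 to 1 for serum response and for proliferation genes, 0 to 3 for CREB genes and for targets, 1 to 8 for kinases and 0 to 4 for heat-shock genes.

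Median log2 fold changes moved under quantile normalization to 0.094 (leucine-zipper partners), 0.095 (serum response), -0.089 (CREB), 0.20 (kinases), 0.039 (heat-shock) and -0.22 (proliferation). Upper-quartile scaling gave 0.18 for serum response genes, and the GC and length correction, with or without the block, 0.079 for feedback inhibitors. With 1 library left out the median ranged from -0.031 to 0.060 for feedback inhibitors and from 0.085 to 0.27 for targets.

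Libraries with the same number did not deviate together (correlations of -0.070, 0.020, 0.073 and -0.057 over all tested genes), so the numbers were not taken to pair them. The replicate block called 2057 genes and changed no call of the 10 genes by itself.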

Other observations

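Jund, the AP-1 subunit that is best known for its steady expression, was listed at 247.402, 247.393 and 247.376 FPKM in K2KO libraries 0, 1 and 2, a spread of 0.0105%. It was the only 1 of 10920 tested genes with 3 K2KO libraries within 0.02% of each other, and 0 genes were that close in 3 LysM libraries. The median spread of the closest 3 libraries was 10.1% in K2KO and 8.82% in LysM. The 3 values enter the lower call of Jund, and no fit left all 3 out, so how far the call rests on them was not tested. The cause of their closeness was not tested either.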
